A study of Mus musculus with 14 samples.

Results

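The transcripts of 10 genes that carry a cell from G1 into S phase were followed in mouse liver: the D cyclins Ccnd1, Ccnd2 and Ccnd3, the E cyclins Ccne1 and Ccne2, the cyclin-dependent kinases Cdk2, Cdk4 and Cdk6, and the retinoblastoma family members Rb1 and Rbl1. They were chosen by gene symbol, as 10 of the 54446 genes in the deposited table, and all 10 passed the filter on low values that left 23554 genes for testing. D cyclins bind Cdk4 and Cdk6 and couple growth signals to the cell cycle, and E cyclins bind Cdk2. These kinases phosphorylate the pocket proteins Rb1, Rbl1 and Rbl2, which otherwise hold E2F transcription factors and keep genes of DNA synthesis silent. In adult liver most hepatocytes are quiescent, many are polyploid, and Ccnd1 is the D cyclin best known for its induction when hepatocytes re-enter the cycle. Rbl2, the third pocket protein, was not among the 10 and is given beside Rb1 and Rbl1 for comparison.

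The samples were flash-frozen livers of C57BL/6 mice aged 5 weeks. The 8 knockout mice carried a floxed Mettl3 gene and Alb-Cre, and the 6 control mice, titled WT in the labels, carried the floxed Mettl3 gene without the recombinase. The Mettl3 protein is the methyltransferase that places N6-methyladenosine on mRNA. Alb-Cre is driven by the albumin promoter, so deletion is aimed at hepatocytes, and other liver cells in the same sample keep the gene. The study set livers with and without hepatic Mettl3 side by side, and its stated subjects include hepatocyte ploidy.

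Each value below is a normalised estimated count of a gene in 1 library, and changes are differences of log2(value + 1), knockout minus control, from a limma fit to all 23554 genes with Benjamini-Hochberg adjustment. Genes were called at an adjusted p up to 0.05. Mettl3 averaged 99.5 ± 15.7 in knockouts and 223 ± 23.7 in controls (SD, n = 8 and 6), and the groups did not overlap. Depth was 11.1 to 33.8 megareads (M) per library, estimated from the values. Libraries 1 to 4 of both groups had Y-linked transcripts and averaged 29.2 M reads, and the others had high Xist and averaged 13.9 M, so this class and depth cannot be told apart. Knockout libraries 3, 6 and 7 had the highest scores on the first principal component of the genes tested (31.3% of variance), at 61.5, 99.7 and 96.3. Scores of the remaining 5 knockouts were -10.7 to 27.6, and control scores were -70.3 to -25.8. Libraries 6 and 7 also had the highest shares of mitochondrially encoded protein-coding transcripts, at 7.85% and 7.91%. Results that rest on these 3 libraries are given with and without them. The labels number the samples but say nothing of litters or batches. The p-values set each group difference against the spread between livers and take the livers as independent, which the labels do not show. In whole liver, a change in the number of cells of a type and a change in RNA per cell cannot be told apart.

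Of the 10 genes, 2 were higher in knockouts (Rbl1 and Cdk6), 1 was lower (Cdk2) and 7 did not pass the test. Among all genes tested, 11.5% were called higher and 11.0% were called lower, so the number of called genes among the 10 was close to that background. For none of the 10 did the knockout and control ranges separate completely, while they did so for 8.16% of all genes tested. Rbl1 and Rbl2, a pair of pocket proteins with closely related structure, were called in opposite directions, but the Rbl2 call was lost without knockouts 3, 6 and 7 and under another scaling. The promoters of the 3 called genes are shown first, because a match to the E2F consensus letters occurred in some of them and not in the others.

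RefSeq promoters (GRCm38.p6, 250 bases before to 50 bases after a start) were at hand for 6 of the 10 genes: Rbl1, Cdk6, Ccne1, Cdk4, Cdk2 and Ccnd3. They were searched on both strands for the E2F letters TTTCCCGC, TTTCGCGC, TTTGCCGC and TTTGGCGC, no one of which contains another. In the sequences below capitals mark such a match. The Rbl1 window (chr2:157204485-157204784, minus strand) held TTTCGCGC at -18 from the start. The Cdk2 window (chr10:128705002-128705301, minus strand) held GCGGGAAA, the reverse complement of TTTCCCGC, at -140. The Cdk6 window (chr5:3343643-3343942, plus strand) held no match.
Rbl1: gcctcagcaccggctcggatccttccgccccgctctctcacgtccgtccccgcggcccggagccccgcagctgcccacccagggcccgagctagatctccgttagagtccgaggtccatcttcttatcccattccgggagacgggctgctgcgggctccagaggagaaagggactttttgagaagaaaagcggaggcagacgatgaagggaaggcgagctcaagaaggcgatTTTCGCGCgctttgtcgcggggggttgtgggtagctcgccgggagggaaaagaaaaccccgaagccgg
Cdk2: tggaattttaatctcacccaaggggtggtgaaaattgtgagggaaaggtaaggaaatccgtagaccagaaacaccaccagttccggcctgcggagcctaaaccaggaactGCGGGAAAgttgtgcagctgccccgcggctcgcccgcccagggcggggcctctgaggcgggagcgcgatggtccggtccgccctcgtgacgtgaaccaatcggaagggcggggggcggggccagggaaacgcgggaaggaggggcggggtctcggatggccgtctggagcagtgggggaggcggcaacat
Cdk6: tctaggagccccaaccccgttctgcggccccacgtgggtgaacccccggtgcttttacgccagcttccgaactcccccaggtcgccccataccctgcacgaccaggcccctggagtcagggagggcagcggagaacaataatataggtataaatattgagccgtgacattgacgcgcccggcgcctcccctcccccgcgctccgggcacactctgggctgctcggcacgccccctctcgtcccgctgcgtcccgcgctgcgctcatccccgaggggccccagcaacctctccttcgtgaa
Of 32851 promoters of this length, 2.26% held at least 1 of these matches, and of 17 promoters of the E2F target genes of DNA synthesis described further on, 8 did (47.1%). Those genes were listed as E2F targets, so their high share follows from the choice of the list. Of the 6 genes with a promoter, the matches were thus in 1 that was higher in knockouts and in 1 that was lower. A match of letters describes the sequence and shows no binding, and a window without one says nothing about E2F.

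Among the pocket proteins, Rbl1 (chromosome 2, 157145893 to 157204534, minus strand), which in mammals binds chiefly the repressor E2Fs and is itself a known E2F target, had values of 92.5, 102, 139, 60.5, 88.2, 136, 134 and 89.4 in knockout livers 1 to 8, against 60.5, 53.0, 52.6, 43.3, 64.4 and 67.6 in control livers 1 to 6. All knockouts but number 4 lay above the highest control, and knockout 4 fell among the controls. The mean was 105 ± 28.3 in knockouts and 56.9 ± 8.97 in controls (SD, n = 8 and 6), which is a change of 0.84 on the log2 scale with SE 0.18 (limma adjusted p = 0.00432), or 1.79-fold with a 95% interval of 1.37 to 2.35. Knockouts 3, 6 and 7 had the 3 highest values, at 134 to 139, and without them the change was 0.59 (SE 0.17, limma adjusted p = 0.0256). In that comparison 1 of the 10 genes was called higher (Rbl1) and 1 lower (Cdk2), against 9.19% and 9.24% of all genes tested.

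Rbl2 (chromosome 8, 91070057 to 91123844, plus strand), the pocket protein that is typical of quiescent cells and a subunit of the DREAM repressor complex, was lower in knockouts when all libraries were used. Its values were 271, 231, 165, 171, 298, 134, 176 and 219 in knockouts and 309, 308, 318, 287, 320 and 256 in controls. Knockouts 2, 3, 4, 6, 7 and 8 lay below the lowest control. Rbl2 averaged 208 ± 56.8 in knockouts and 300 ± 24.3 in controls, a change of -0.57 on the log2 scale (limma adjusted p = 0.0196, SE 0.16). Without knockouts 3, 6 and 7, which held 3 of the 4 lowest values, the change was -0.35 and missed the threshold (limma adjusted p = 0.0903).

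Rb1 (chromosome 14, 73183673 to 73325822, minus strand), the founding tumour suppressor of the family, was scarce in this tissue. Its values were 21.2, 14.7, 23.6, 24.6, 27.8, 28.4, 38.5 and 17.6 in knockouts and 21.9, 29.3, 39.9, 36.8, 27.2 and 40.5 in controls. The groups overlapped over most of their range, with 3 knockouts below the lowest control. The difference of -0.41 on the log2 scale did not pass the test (limma adjusted p = 0.187, SE 0.22), and its 95% interval ran from -0.87 to 0.04. Rb1 shares 408 exon bases with Lpar6 and 488 with Rcbtb2 on the opposite strand, and Rbl2 shares 693 with Aktip. Because the strand setting of the quantification is not given in the sources used here, reads from these stretches may have been assigned to either gene. Rbl1 shares no exon bases with another gene.

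Levels per kb of transcript allow genes of different length to be set side by side within a library. Rbl1 made up 24.2%, 29.5%, 42.5%, 23.7%, 21.4%, 45.7%, 38.4% and 27.6% of the summed Rb1, Rbl1 and Rbl2 level in knockouts 1 to 8, against 15.6%, 13.7%, 12.9%, 11.8%, 15.8% and 18.7% in controls 1 to 6. The lowest knockout stood above the highest control. Knockouts 3, 6 and 7 held the highest shares, at 38.4% to 45.7%. The mean share was 31.6% ± 9.31 in knockouts and 14.7% ± 2.44 in controls (SD, n = 8 and 6). Rbl2 was the most abundant pocket protein transcript on average in both groups, at 60.6% ± 10.7 in knockouts and 76.4% ± 3.36 in controls, but in knockout 6 Rbl1 exceeded it, at 45.7% against 44.3%. The Rb1 share was 7.77% ± 2.51 in knockouts and 8.85% ± 2.28 in controls, with overlapping ranges. A share taken within 1 library does not depend on how libraries were scaled to each other. These shares were not tested, because Rbl1 and Rbl2 were followed with their changes known.

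**Figure D1:**
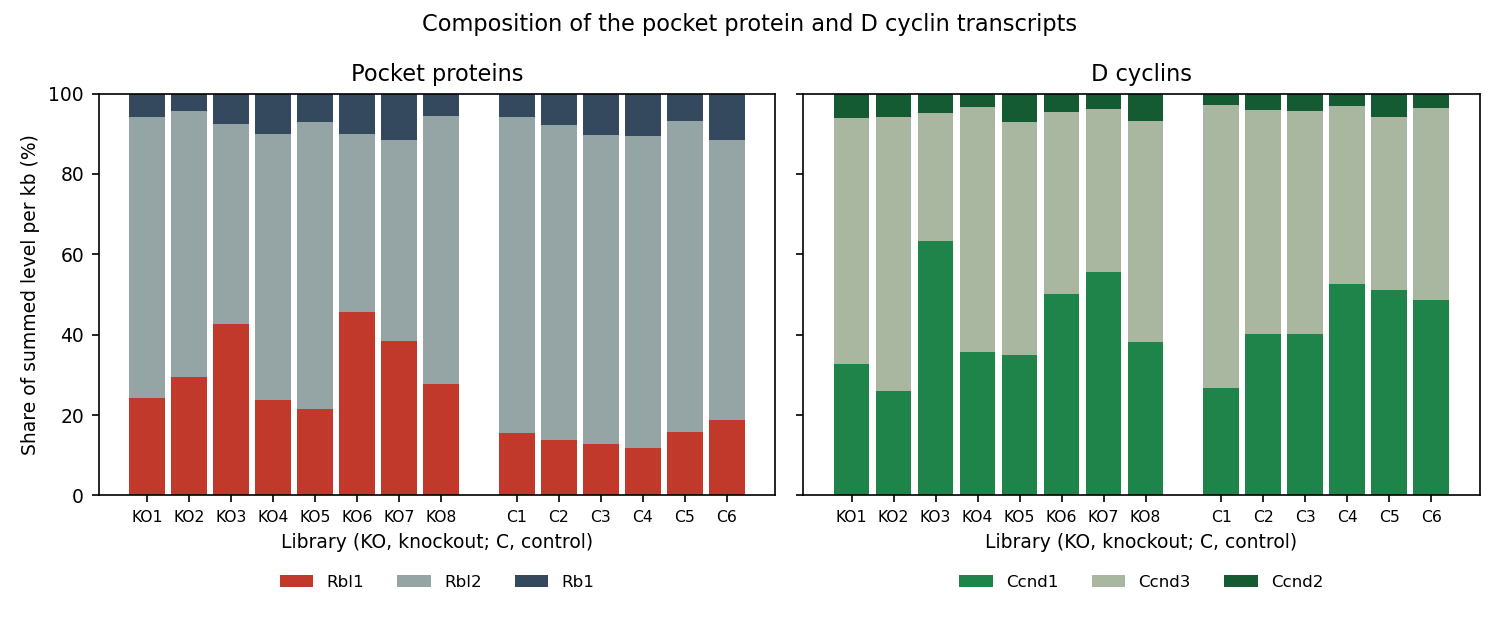
Make-up of pocket protein transcripts (left; Rbl1, Rbl2, Rb1) and D cyclin transcripts (right; Ccnd1, Ccnd3, Ccnd2) in each library, as a percent of the summed level per kb, with 8 knockout (KO) libraries left of 6 control (C) libraries. The Rbl1 share is 21.4% to 45.7% in knockouts and 11.8% to 18.7% in controls, whereas the Ccnd1 share spans 26.0% to 63.2% in knockouts and 26.7% to 52.6% in controls.

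Cdk6, Cdk4 and Cdk2 are the catalytic partners of the G1 cyclins. Cdk6 (chromosome 5, 3341485 to 3531008, plus strand), which pairs with D cyclins and is best known from blood cells, had values of 320, 298, 422, 211, 315, 363, 480 and 233 in knockouts, against 198, 212, 230, 150, 226 and 190 in controls. All knockouts but number 4 were above the highest control. Cdk6 averaged 330 ± 90.2 in knockouts and 201 ± 29.6 in controls (SD, n = 8 and 6), a change of 0.68 on the log2 scale (limma adjusted p = 0.0105, SE 0.17) and a fold of 1.6 with a 95% interval of 1.24 to 2.07. Knockouts 3, 6 and 7 held the 3 highest values, at 363 to 480. Without them the change was 0.45 and just missed the threshold (SE 0.15, limma adjusted p = 0.0515). Cdk6 shares 368 exon bases with the antisense transcript Gm17590, which averaged 6.12 in knockouts and 2.40 in controls.

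Cdk2 (chromosome 10, 128697939 to 128705031, minus strand), the partner of cyclins E and A, had values of 205, 188, 240, 212, 254, 249, 219 and 215 in knockouts and 296, 300, 324, 309, 241 and 251 in controls. The 4 highest controls, numbers 1 to 4, stood above every knockout, and controls 5 and 6 fell among the knockouts. Cdk2 shares 34 exon bases with Pmel on the opposite strand, which averaged 4.06 in knockouts and 3.32 in controls. Cdk2 averaged 223 ± 22.7 in knockouts and 287 ± 33.3 in controls, a change of -0.36 on the log2 scale (limma adjusted p = 0.0172, SE 0.10) or a fold of 0.78 with a 95% interval of 0.67 to 0.90. Without knockouts 3, 6 and 7 it was -0.41 (limma adjusted p = 0.0227). In the authors' deposited table the q-value of Cdk2 was 0.0617, above the threshold, while those of Cdk6 and Rbl1 were 0.00244 and 0.000367.

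The call of Cdk2 depended on how libraries were scaled. When all libraries were given the same total outside ribosomal RNA (equal sums), the median over all genes shifted by 0.33 on the log2 scale, to 0.38, and Cdk2 stood at -0.02 (limma adjusted p = 0.881). Under that scaling 33.3% of all genes were called higher and 3.68% lower, Cdk6 was at 1.02 and Rbl1 at 1.17, both called, and none of the 10 genes was called lower. Rbl2 was then at -0.23 and not called (limma adjusted p = 0.216). Ratios of values within a library do not alter with scaling, but their pairs were chosen with the changes known, so they restate the calls and add no support to them. Cdk6 over Cdk2 was 0.996 to 2.19 in knockouts and 0.485 to 0.938 in controls, and Rbl1 over Rbl2 was 0.295 to 1.02 in knockouts and 0.151 to 0.264 in controls, both without overlap. The groups overlapped for Rbl1 over Rb1, at 2.46 to 6.91 in knockouts and 1.18 to 2.76 in controls, and for Cdk6 over Cdk4, at 0.497 to 1.04 in knockouts and 0.292 to 0.653 in controls.

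Cdk4 (chromosome 10, 127063534 to 127067920, plus strand), the D cyclin kinase expressed in most tissues, had values of 456, 285, 587, 404, 436, 730, 817 and 315 in knockouts, against 508, 386, 496, 512, 345 and 478 in controls. Knockouts 3, 6 and 7 lay above every control and knockouts 2 and 8 below every control, so the groups overlapped with the knockouts more spread. Their coefficient of variation was 38.0% in knockouts and 15.6% in controls. The difference was 0.08 on the log2 scale (limma adjusted p = 0.841, SE 0.22), with a 95% interval of -0.39 to 0.54, and it turned to -0.27 without the 3 libraries (limma adjusted p = 0.248). Cdk4 shares 641 exon bases with Tspan31 on the opposite strand. Per kb, Cdk4 was the more abundant of the D cyclin kinases throughout, and Cdk6 made up 10.9% ± 2.37 of their sum in knockouts and 7.51% ± 1.94 in controls (SD, n = 8 and 6), with ranges of 8.14% to 15.7% in knockouts and 4.94% to 10.4% in controls.

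**Figure D2:**
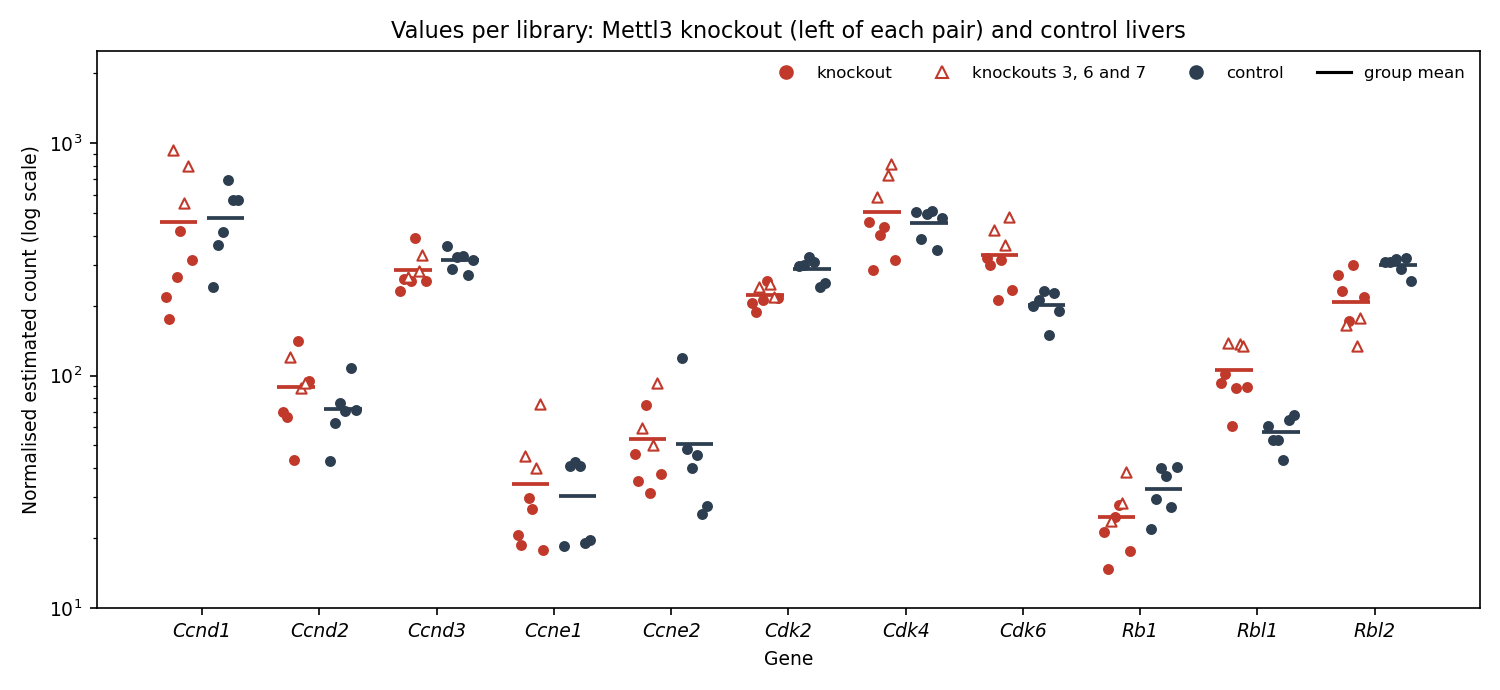
Normalised estimated count per library (log axis) of the 10 genes and Rbl2, with knockout libraries left of control libraries in each pair, triangles for knockouts 3, 6 and 7, and bars for group means. For Rbl1 and Cdk6 all knockouts but 1 lie above the highest control, and for Ccnd1 and Cdk4 the triangles lie at the top of a wide knockout range.

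None of the 3 D cyclins passed the test. Ccnd1 (chromosome 7, 144929931 to 144939925, minus strand), the cyclin most tied to hepatocyte proliferation, had values of 218, 176, 933, 266, 417, 554, 802 and 314 in knockouts and 241, 366, 416, 692, 569 and 568 in controls. Both groups were wide, and the knockouts enclosed the controls: 2 lay above every control (numbers 3 and 7) and 2 below (numbers 1 and 2). The mean was 460 ± 280 in knockouts and 475 ± 164 in controls (SD, n = 8 and 6). The difference of -0.20 on the log2 scale (limma adjusted p = 0.742, SE 0.36) had a 95% interval of -0.97 to 0.57. Knockouts 3, 6 and 7 held the 3 highest knockout values, at 554 to 933, and the remaining 5 spanned 176 to 417. Without them the change was -0.75 and still missed the threshold (SE 0.27, limma adjusted p = 0.0733), and with libraries scaled to equal sums it was 0.14. Ccnd1 shares 1100 exon bases with LTO1 on the opposite strand.

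Ccnd2 (chromosome 6, 127125162 to 127152193, minus strand), the least abundant D cyclin here, had values of 69.9, 66.4, 120, 43.2, 141, 88.0, 92.6 and 94.6 in knockouts and 42.7, 62.6, 75.9, 70.1, 108 and 71.0 in controls. Knockouts 3 and 5 were above every control and the other 6 lay within the control range, and the difference was 0.29 on the log2 scale (limma adjusted p = 0.440, SE 0.25). Ccnd3 (chromosome 17, 47505051 to 47599691, plus strand), a D cyclin prominent in lymphoid cells, had values of 232, 261, 267, 255, 389, 281, 330 and 255 in knockouts and 360, 287, 324, 328, 271 and 315 in controls. Knockouts 1 to 4 and 8 lay below the lowest control, but knockout 5 was the highest of all 14. Its difference of -0.16 on the log2 scale did not pass (limma adjusted p = 0.359, SE 0.12), and with equal sums it was 0.18. Ccnd3 shares 361 exon bases with Bysl on the opposite strand, and its annotated pseudogene had values of at most 3.95 in knockouts and 4.05 in controls.

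Per kb, Ccnd1 made up 42.1% ± 12.8 of the summed D cyclin level in knockouts and 43.3% ± 9.72 in controls, and Ccnd3 52.6% ± 12.2 in knockouts and 52.8% ± 10.2 in controls (SD, n = 8 and 6). Ccnd2 supplied 5.32% ± 1.34 in knockouts and 3.95% ± 1.05 in controls. In knockouts 3, 6 and 7 Ccnd1 was the main D cyclin, at 63.2%, 50.2% and 55.7%, and in the other 5 knockouts Ccnd3 was, with Ccnd1 at 26.0% to 38.2%. Controls were divided in the same way, with Ccnd1 ahead in numbers 4, 5 and 6, at 48.7% to 52.6%, and Ccnd3 ahead in numbers 1, 2 and 3. This division depends on the transcript lengths used. Undivided by length, Ccnd1 was also ahead in knockouts 4, 5 and 8 and in controls 2 and 3. Ccnd3 then stayed ahead in knockouts 1 and 2 and in control 1. The mean undivided share of Ccnd1 was 51.5% in knockouts and 53.8% in controls, and that of Ccnd3 was 37.3% and 37.9%.

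The E cyclins, which activate Cdk2 at the start of S phase, were scarce and variable. Ccne1 (chromosome 7, 38097984 to 38107534, minus strand) had values of 20.5, 18.6, 45.1, 29.7, 26.7, 40.0, 75.7 and 17.7 in knockouts, against 18.4, 41.0, 42.4, 40.6, 18.9 and 19.6 in controls. Knockout 7 was the highest of all libraries, and the controls were split between 3 values of 18.4 to 19.6 and 3 of 40.6 to 42.4. The difference was 0.12 on the log2 scale (limma adjusted p = 0.840, SE 0.33), with a 95% interval of -0.59 to 0.82, and without knockouts 3, 6 and 7 it was -0.33 (limma adjusted p = 0.470). Ccne2 (chromosome 4, 11191351 to 11204779, plus strand) had values of 45.8, 35.1, 59.6, 75.0, 31.3, 50.5, 93.0 and 37.5 in knockouts and 119, 48.3, 40.1, 45.3, 25.4 and 27.4 in controls. Control 1 was the highest of all 14 libraries, the difference was 0.18 on the log2 scale (limma adjusted p = 0.732, SE 0.32), and it was -0.04 without the 3 libraries. Ccne2 shares 609 exon bases with Ints8 on the opposite strand. Per kb, Ccne1 made up 47.7% ± 7.71 of the E cyclin sum in knockouts and 49.7% ± 15.5 in controls, and Ccne2 the rest.

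**Figure D3:**
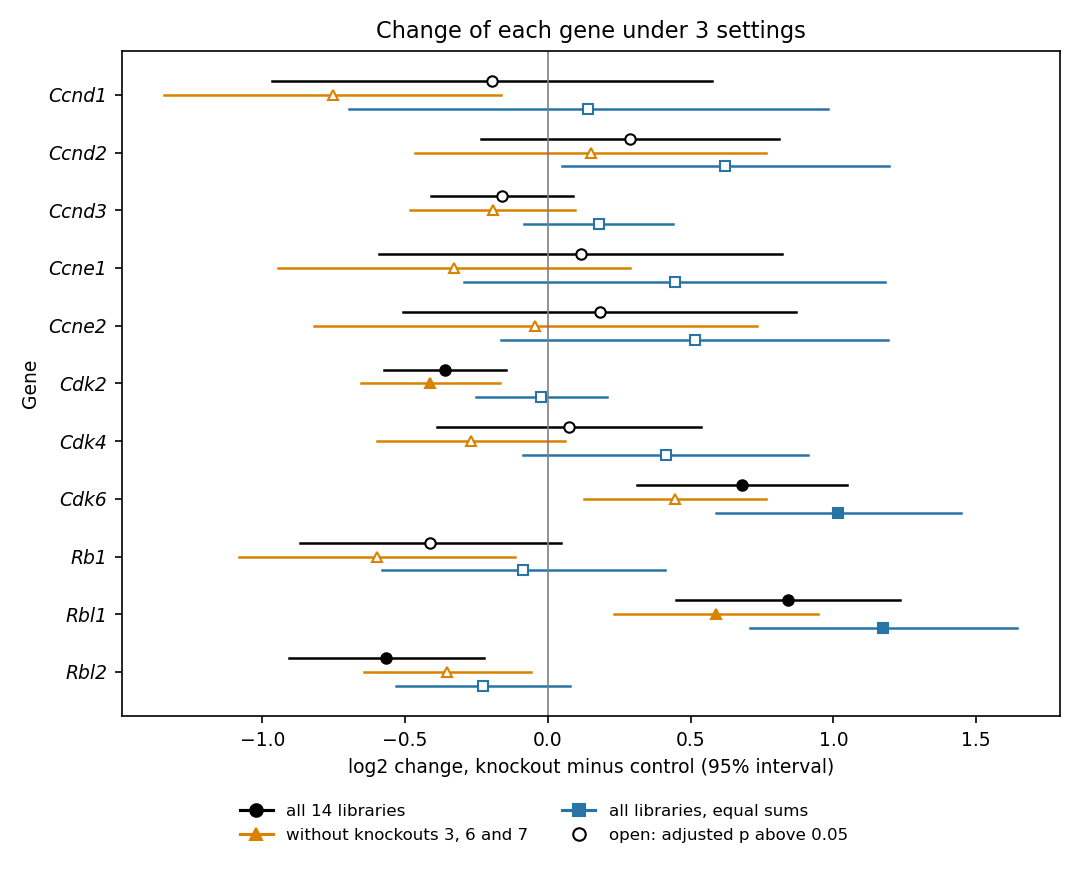
Log2 change, knockout minus control, with its 95% interval for the 10 genes and Rbl2, from all 14 libraries (circles), without knockouts 3, 6 and 7 (triangles) and with libraries scaled to equal sums (squares), open where the limma adjusted p is above 0.05. Rbl1 is called in all 3 settings, at 0.84, 0.59 and 1.17, Cdk6 only in the first and last, and Cdk2 only in the first pair, at -0.36 and -0.41.

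Ordered by level per kb, Cdk4 led in both groups, at 245 ± 93.2 in knockouts and 221 ± 34.5 in controls, followed by Ccnd3, Ccnd1 and Cdk2, while Rb1 was lowest, at 5.28 ± 1.58 in knockouts and 7.0 ± 1.63 in controls (SD, n = 8 and 6). The first 4 were separated from the others by a gap: Cdk2 did not overlap Cdk6 in either group, at 78.3 to 106 and 18.3 to 41.6 in knockouts, and with a lowest Cdk2 level of 99.96 in controls, where Cdk6 averaged 17.4 ± 2.56. The ranges of all other neighbours in the order overlapped across the livers of a group. Overlap of such ranges does not show how 2 genes rank within a liver, which was not examined for them. Rbl1 ranked after Cdk6 in knockouts, at 21.6 ± 5.81 per kb, and after Ccne1 in controls, at 11.7 ± 1.85. This order, and the gap between Cdk2 and Cdk6, rests on the longest coding transcript, of 11525 bases for Cdk6 and 2406 for Cdk2. Undivided by length, Cdk6 averaged 330 and Cdk2 223 in knockouts, against 201 and 287 in controls.

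The differences were also taken within the Y-positive and Xist-high libraries. Rbl1 differed by 0.85 in Y-positive libraries (limma adjusted p = 0.0428, 4 knockouts and 4 controls) and by 0.72 in Xist-high libraries (limma adjusted p = 0.242, 4 knockouts and 2 controls). Cdk6 was at 0.63 in Y-positive libraries (limma adjusted p = 0.0729) and at 0.70 in Xist-high libraries (limma adjusted p = 0.274). Cdk2 differed by -0.54 in Y-positive libraries, where its values were 188 to 240 in knockouts and 296 to 324 in controls (limma adjusted p = 0.0151). In Xist-high libraries Cdk2 differed by -0.07, with values of 215 to 254 in knockouts and 241 and 251 in controls (limma adjusted p = 0.872). The test of the difference between classes was passed by none of the 10 genes and by 0.0552% of all genes. The smallest p among the 10 was that of Cdk2 (unadjusted p = 0.0195 and adjusted p = 0.809 in the limma interaction), the only one of the 10 with an unadjusted p under 0.05.

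Genes that act on or downstream of these cyclins and kinases were counted in 7 lists, against a background of 11.5% called higher and 11.0% lower and a median log2 change of 0.05 over all genes tested. Of 6 CDK inhibitors tested, 2 were higher and 1 lower (median 0.30). Cdkn1a, the p53-induced inhibitor of cyclin-dependent kinases, averaged 260 ± 215 in knockouts and 28.8 ± 10.3 in controls without overlap, a log2 change of 2.71 (limma adjusted p = 0.00141), and it was 1.83 without knockouts 3, 6 and 7. Those 3 libraries held Cdkn1a values of 481 to 550, and the remaining 5 knockouts had 49.9 to 162. The ratio of the Ccnd1 value to the Cdkn1a value, a pair also chosen with its changes known, was 1.07 to 8.35 in knockouts and 8.90 to 32.8 in controls, with no overlap. Cdkn3, a phosphatase that acts on cyclin-dependent kinases, was higher, at 25.1 ± 19.0 in knockouts and 5.01 ± 2.13 in controls (log2 1.84, limma adjusted p = 0.00809). It passed the filter on low values through 6 knockouts, with 0 controls reaching 10, so its call supports nothing about the list, and the authors' deposited table gives it no q-value. Without the filter its adjusted p was 0.0212. Cdkn1b, the inhibitor of Cdk2 complexes, was lower, at 474 ± 43.4 in knockouts and 613 ± 56.9 in controls (log2 -0.37, limma adjusted p = 0.00657), but stood at -0.03 with equal sums.

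Of 10 E2F and DP factors, 3 were higher and 3 lower (median 0.33). The activators E2f1 and E2f3 rose without overlap of the groups: E2f1 averaged 216 ± 59.7 in knockouts and 96.2 ± 14.8 in controls (log2 1.13, limma adjusted p = 0.000223), and E2f3 463 ± 122 in knockouts and 226 ± 66.3 in controls (log2 1.05, limma adjusted p = 0.00234). Tfdp1, a DNA-binding partner of E2Fs, was higher by 0.48 (limma adjusted p = 0.0257), a call that was lost when control 2, 5 or 6 was left out, at adjusted p = 0.0548, 0.0600 and 0.0595, and at 0.112 without knockouts 3, 6 and 7. The repressor-type factors E2f4 and E2f5, partners of Rbl1 and Rbl2, were lower, at 268 ± 56.5 and 99.7 ± 20.4 in knockouts against 377 ± 46.7 and 151 ± 17.3 in controls (log2 -0.51 and -0.61, limma adjusted p = 0.0158 and 0.00553). Tfdp2, the other DP partner, was lower by 0.58 without overlap (log2 -0.58, limma adjusted p = 0.00302). With equal sums the 3 lower genes kept a negative sign at -0.17 to -0.28 and none was called.

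Among 19 E2F target genes of DNA synthesis, 9 were higher and 1 was lower (median 0.53). The 3 with the largest change were subunits of the replicative helicase. Mcm6 averaged 411 ± 241 in knockouts and 69.7 ± 21.0 in controls (log2 2.38, limma adjusted p = 0.000185), and Mcm2 185 ± 93.6 in knockouts and 42.2 ± 7.59 in controls (log2 1.99, limma adjusted p = 7.94e-05), neither with overlap. Mcm5 averaged 198 ± 114 in knockouts and 64.6 ± 12.8 in controls (log2 1.42, limma adjusted p = 0.00492). Of the other helicase subunits of this family, Mcm3 and Mcm4 were higher, at 0.83 and 0.82 (calls lost without the filter on low values, at adjusted p = 0.0755 and 0.0502), and Mcm7 was not called at 0.53 (limma adjusted p = 0.0521). Tk1, thymidine kinase, was lower, at 380 ± 109 in knockouts and 602 ± 137 in controls (log2 -0.68, limma adjusted p = 0.0168), and Pcna, the polymerase clamp, was not called at 0.09. Without knockouts 3, 6 and 7 the list had 4 higher and 0 lower, against 9.19% and 9.24% of all genes tested. The higher genes were Mcm6 at 1.88, Mcm2 at 1.64, Mcm5 at 0.91 and Gins1. Gins1, part of the same helicase, was singled out after its value was seen, as was Pcna.

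Of 13 other cyclins, kinases and regulators, 3 were higher and 0 lower in the limma fit (median 0.54), with 1 lower gene, Ccnh, at an unadjusted p under 0.05 and 0 by the authors' deposited q-values. The 3 higher genes act in mitosis: Ccnb2, Ccnb1 and Cdk1. Cdk1 averaged 101 ± 67.7 in knockouts and 28.4 ± 6.81 in controls (log2 1.57, limma adjusted p = 0.00588), Ccnb2 59.0 ± 58.4 in knockouts and 11.0 ± 3.44 in controls (log2 1.89, limma adjusted p = 0.00957). Ccnb1 averaged 48.9 ± 51.2 in knockouts and 10.5 ± 5.72 in controls (log2 1.78, limma adjusted p = 0.0204), but its call was lost without control 6 (adjusted p = 0.0510) and without knockouts 3, 6 and 7 (0.98, adjusted p = 0.0743). Of the 6 controls, 3 reached the filter's minimum of 10 for Ccnb1 and 4 for Ccnb2, so both passed through the knockouts, and without the filter their adjusted p was 0.0489 and 0.0244. Cdk7 and Ccnh, parts of the kinase that activates Cdk2 and Cdk4, were not called, at -0.05 and -0.29, and were singled out after their values were seen.

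Of 14 growth factor, receptor and transcription factor genes that feed cyclin D, 4 were higher (Myc, Hbegf, Fos and Yap1) and 1 lower (median 0.26). Myc averaged 552 ± 421 in knockouts and 121 ± 69.7 in controls (log2 1.94, limma adjusted p = 0.0120), the ligand Hbegf 48.1 ± 21.9 in knockouts and 21.8 ± 6.67 in controls (log2 1.03, limma adjusted p = 0.0183), and Fos, for which 3 of 6 controls reached the minimum of 10, was higher by 0.85 (limma adjusted p = 0.0320). Egfr, the receptor for Hbegf, was lower, at 507 ± 368 in knockouts and 1898 ± 865 in controls (log2 -2.11, limma adjusted p = 0.00488). Without knockouts 3, 6 and 7, 1 of these genes was called higher, the insulin receptor Insr, against 9.19% of all genes tested. Myc then stood at 1.16 (limma adjusted p = 0.0567), and Egfr was lower at -1.48 (limma adjusted p = 0.0237). Fos also lost its call when knockout 3 or 5 or control 1, 4 or 5 was left out, at adjusted p of 0.0502 to 0.0755. Yap1 was higher by 0.25 (limma adjusted p = 0.0426). Its call was lost without the filter on low values (limma adjusted p = 0.0656) and by the authors' deposited q-value (0.14). Yap1 and Insr were named after their values were seen.

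Of 13 genes for the degradation of cyclins and their inhibitors, 1 was higher and 3 lower (median -0.23). Fbxo4 averaged 133 ± 15.2 in knockouts and 89.1 ± 12.2 in controls (log2 0.58, limma adjusted p = 0.00238), and Fbxo31 573 ± 239 in knockouts and 1031 ± 262 in controls (log2 -0.93, limma adjusted p = 0.0211). Both encode F-box proteins reported to target cyclin D1. The Fbxo31 call was lost without control 1 (adjusted p = 0.0520) and without knockouts 3, 6 and 7 (adjusted p = 0.0907). The cullins Cul3 and Cul4a were lower, at -0.41 and -0.27 on the log2 scale (limma adjusted p = 0.00356 and 0.020), and with equal sums they were at -0.07 and 0.07, where Cul4a had turned in sign. The Cul4a call was also lost after quantile normalization (-0.12, adjusted p = 0.321), without knockouts 3, 6 and 7 (adjusted p = 0.0549) and by the q-value in the authors' deposited table (0.131). Of 7 DREAM complex genes, 4 were lower (median -0.45): Rbbp4, Rbl2, Lin52 and Lin37. In the limma fit 0 were higher, as at an unadjusted p under 0.05 and by the q-values of the authors' deposited table, which called 2 of the 4 lower genes, Rbbp4 and Rbl2, and gave Lin52 0.0608 and Lin37 0.0811. Rbbp4, a histone-binding subunit, averaged 2537 ± 502 in knockouts and 4241 ± 1240 in controls (log2 -0.71, limma adjusted p = 0.00695), and Lin52 was at -0.51 (limma adjusted p = 0.0267), a call lost without knockout 3 or control 1 or 4, at 0.0512 to 0.0649. Lin37, at -0.45, was named after its value was seen. Without knockouts 3, 6 and 7 the DREAM list had 1 lower gene, Rbbp4, against 9.24% of all genes tested.

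**Figure D4:**
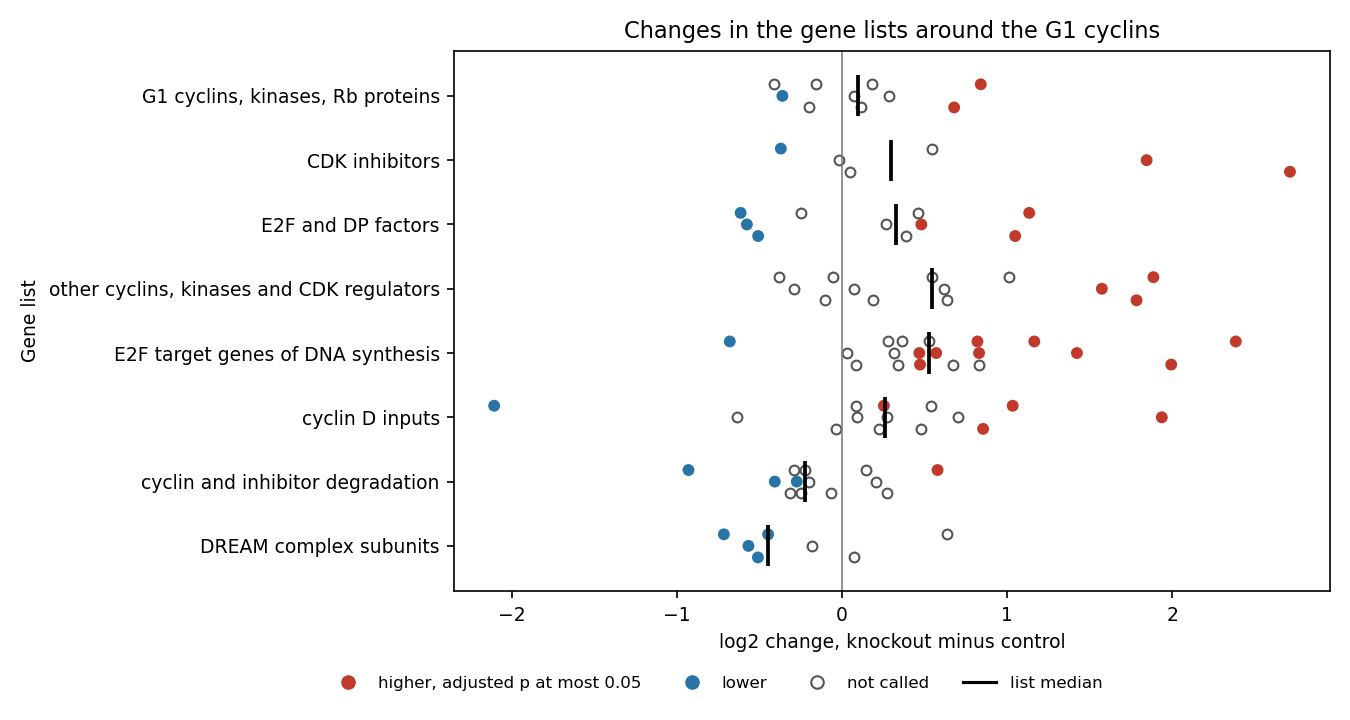
Log2 change, knockout minus control, of each tested gene of the 10 and of the 7 lists around them; filled points are called (red higher, blue lower), open points are not, and bars are list medians. The E2F target genes lie mostly to the right, with a median of 0.53, and the DREAM genes to the left, with a median of -0.45, against 0.05 over all genes.

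Marker transcripts of hepatocytes and other liver cells were also compared between the groups, beside 11.5% of all genes tested called higher and 11.0% called lower. Of 6 cholangiocyte markers, 3 were higher (Epcam, Sox9 and Spp1), and their summed value was 1073 to 3527 in knockouts, with the 3 highest sums in libraries 3, 6 and 7, against 697 to 1247 in controls. Spp1 had the highest mean of these markers, at 1389 in knockouts and 553 in controls. Krt19, a defining marker of these cells, averaged 108 in knockouts and 125 in controls, had a log2 change of 0.26 and was not called. Krt7 and Cftr, at 0.69 and 0.06, were not called either. Of 7 hepatocyte markers, 4 were lower, including Alb and Hnf4a, with sums of 348613 to 672145 in knockouts and 688157 to 809126 in controls. The 3 lowest hepatocyte sums, at 348613 to 417316, were those of knockouts 3, 6 and 7. Of 6 endothelial markers, 2 were lower (Kdr and Clec4g), with sums of 2615 to 4527 in knockouts and 3921 to 4735 in controls. Kdr was just under the threshold, at -0.36 on the log2 scale (limma adjusted p = 0.0499), and Clec4g was at -0.54 (limma adjusted p = 0.00649). None of the tested markers of Kupffer cells and macrophages (6), stellate cells (6), lymphocytes (5), neutrophils (2) or erythroid cells (5) was called by limma or by the authors' deposited q-values. At an unadjusted p under 0.05 there were 4 such markers: Dcn, Cd79b, Tfrc and Klf1. Marker calls and sums are given in the deposited scaling, where the summed value of all genes was lower in every knockout than in any control. With equal sums the median over all genes shifted by 0.33 on the log2 scale. Whether the marker calls hold under that scaling, or without knockouts 3, 6 and 7, was not tested. The hepatocyte sums, separate in the deposited scaling, overlap with equal sums. Knockout 1 had a hepatocyte sum of 672145 in a total of 18577691 outside ribosomal RNA. Control 3 had 688157 in a total of 23068686, which is a smaller share. No marker list was at 0 in any library. The part of these cells in the changes of Rbl1, Cdk6, Cdk2 and the lists was not tested.

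The 5 genes most like Rbl1 were taken as those with the highest Pearson correlation of deviations from the group means, over 14 libraries and 10552 protein-coding genes above the median level. They were Mafk (r = 0.914), E330009J07Rik (0.904), Eda (0.897), Xrn2 (0.897) and Elf4 (0.893). Spearman's rho was 0.767, 0.925, 0.833, 0.873 and 0.886 in the same order. Without knockouts 4 and 3, the libraries farthest from the median of Rbl1, r was 0.819, 0.883, 0.884, 0.793 and 0.918. Deviations from the group means leave out the difference between knockouts and controls. Within groups the libraries still differ in depth and class, so these values describe likeness of pattern across libraries. Of the 5, Eda was called higher, at 1.19 (limma adjusted p = 0.0124), and Mafk, E330009J07Rik, Xrn2 and Elf4 were not called.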

How the data were processed

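Total RNA of 14 livers (8 knockout, 6 control) was measured. The labels name a Takara SMARTer stranded kit for low RNA input. Quantification with kallisto on mm10 and testing with sleuth come from the submitters' processing notes, and versions and settings are not given in the sources used here. The signal values that the authors deposited are estimated counts per gene divided by 1 size factor per library, as read from the values. Among values under 200 reads, the share lying within 0.02 of a whole number of reads was 27.9% to 29.8%, and depth was the summed value over the value of 1 read. Because these are not counts, no counting interval was given. The authors deposited p-values and q-values of a sleuth Wald test for 27865 genes, and a natural log change that equalled the control minus the knockout mean of ln(value + 0.5); that column was not used for changes.

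Lines of 1 gene with several biotypes were reduced to 1, leaving 54446 genes. The 23554 genes reaching 10 in 6 or more libraries were fitted on log2(value + 1) with limma 3.58.1 (R 4.3.3), using a variance trend and no covariate, and p-values were adjusted by Benjamini-Hochberg over all of them. A fold change on this scale understates that of low genes. Positions, exon overlaps and the longest coding transcript used for values per kb came from the GENCODE annotation of GRCm38, and promoters from RefSeq on GRCm38.p6. A planned comparison of protein sequences was not made. The 7 pathway lists, 8 marker lists and 10 genes were chosen with earlier results of these data known, so no list or set was tested. Named were the 10 genes, Mettl3, Rbl2, from each list up to 3 called genes in each direction with the largest change, and the 5 genes most like the member with the smallest p. Alternatives were thresholds, filters, pseudocounts, scalings, weights, covariates, the authors' q, a replicate block, each Xist class alone, knockouts 3, 6 and 7 left out and each library left out.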

Additional observations from a re-analysis of the deposited data

Results flagged for a closer look

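In 3 of 76 groups examined, the values of 1 gene in 1 group, the most extreme library was farther from its nearest neighbour than Dixon's 95% critical value allows, and chance flags about 1 group in 20. Ccne1 was 75.7 in knockout 7, against 17.7 to 45.1 in the other 7 knockouts, and without this library its log2 change was -0.07 in place of 0.12. Ccne2 was 119 in control 1, against 25.4 to 48.3 in the other 5 controls, and without it the change was 0.46 in place of 0.18, still not called. Ccnb1 was 165 in knockout 6, against 16.0 to 67.8 in the other 7 knockouts.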

How the results depend on the processing

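Across 31 alternatives Rbl1 kept its direction (0.59 to 1.17), and Cdk6 (0.45 to 1.02) and Cdk2 (-0.54 to -0.02) did too. With each library left out in turn 2 genes stayed higher and 1 lower, Rbl1 was at 0.77 to 0.95, Cdk6 at 0.60 to 0.76 and Cdk2 at -0.41 to -0.32, all called, while all genes called higher were 2189 to 2863 and all genes called lower 2039 to 2792. The count of the 10 genes called higher was 1 at an adjusted p of at most 0.01, in Y-positive libraries and without knockouts 3, 6 and 7, and 0 in Xist-high libraries. The count called lower was 0 at an adjusted p of at most 0.01, at a minimum of 1.5-fold, with equal sums, with the replicate block, in Xist-high libraries and by the authors' q-value. For the authors' q-value no count over all genes is given here, so that 0 cannot be set against a background. For all genes, 1311 were higher and 1358 lower at 0.01, 1371 lower at 1.5-fold, 7833 higher and 866 lower with equal sums, 1740 higher in Y-positive libraries, and 172 higher and 47 lower in Xist-high libraries, where fewer samples were fitted. Same-numbered livers were not taken as pairs, since 1 of the 6 correlations of their deviations was under 0.1 (0.0707 to 0.228), although all were positive and 3 of 6 knockouts correlated best with the control of their own number. The replicate block gave 2037 higher and 1917 lower genes. Among named genes it left Cdk2 (limma adjusted p = 0.104), Cdkn1b (0.0672), Tfdp1 (0.0746), Ccnb1 (0.0816), Tk1 (0.0504), Hbegf (0.106), Fos (0.125) and Cul4a (0.0755) above the threshold.

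Signs turned mostly for genes that were not called: with equal sums Ccnd1 (0.14), Ccnd3 (0.18) and, called before scaling, Cul4a (0.065); after quantile normalization Ccne1 (-0.038); in Y-positive libraries Ccne1 (-0.33), Ccne2 (-0.13) and Cdk4 (-0.17); in Xist-high libraries Ccnd3 (0.084); without knockouts 3, 6 and 7 Ccne1 (-0.33), Ccne2 (-0.044) and Cdk4 (-0.27). With single libraries left out Ccne1 ran from -0.068 to 0.23 and Cdk4 from -0.037 to 0.18. Without knockouts 3, 6 and 7, 9.19% of all genes were called higher and 9.24% lower. The lists then gave 1 of 13 lower (Wee1) for other cyclins and kinases, and 4 of 19 higher and 0 lower for E2F targets. They gave 1 of 14 higher for cyclin D inputs and 1 of 7 lower for DREAM. With equal sums 33.3% of all genes were called higher and 3.68% lower. The lists then gave 0 lower for CDK inhibitors, E2F factors, E2F targets and degradation. Higher were 8 of 13 other cyclins and kinases, 15 of 19 E2F targets and 10 of 14 cyclin D inputs. Higher were also 4 of 13 degradation genes and 2 of 7 DREAM genes, where 1 was lower. The higher counts for degradation and DREAM and the counts of 0 lower were close to the shares of all genes. Undivided by length, Ccnd2 made up 11.2% of D cyclin values in knockouts and 8.33% in controls, and Cdk6 made up 40.4% of Cdk4 and Cdk6 values in knockouts and 31.0% in controls. Among the named list genes, calls were lost without a filter on low values for Fbxo31 (adjusted p = 0.0503), Fos (0.0665), Tfdp1 (0.0533), Yap1 (0.0656) and Lin37 (0.0640), besides Mcm3 and Mcm4. Calls were also lost with equal sums for Tk1 (0.112) and Fbxo31 (0.0732), and for Fos after quantile normalization (0.12) and with depth as a covariate (0.0885). The causes of these shifts were not tested. Ccne1, Ccne2 and Rb1 gave no value among genes above the median, and how far depth limits the precision of these scarce transcripts was not tested.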
